A study of Mus musculus with 8 samples.

Results

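The members described here are the probe sets of a mouse gene array to which the platform annotation gives 2 or more gene symbols. There were 1621 of them among the 28874 probe sets of the table, beside 21789 probe sets with 1 symbol and 5464 with none. Each member is named by all its symbols, and a value belongs to the whole set of genes, not to one of them. The members carried 800 distinct sets of symbols, of which the longest had 20, and 725 members had exactly 2. Members that share a symbol were joined into 593 annotation groups, of which 307 held a single member and the largest held 35. Such members are not independent, since 259 of them lay in 93 sets with identical values on every array, and 1455 distinct rows of values remained.

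The arrays came from microglia, the resident macrophages of the brain, of Swiss Webster mice aged 17 weeks and labelled female. The 4 knockout samples came from mice without MFP2, an enzyme of peroxisomal beta-oxidation encoded by Hsd17b4, and the 4 control samples from mice labelled wild type. The labels name no promoter or cell type for the deletion. The cells were sorted from whole brain by high CD11b and intermediate CD45 at the surface, and a small amount of RNA was amplified before labelling. The labels number the replicates without saying that each came from its own animal, and a p-value here weighs a change against the spread of these 8 arrays alone. In bulk samples such as these, fewer cells of a type and less RNA per cell cannot be told apart.

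Genes share a probe set for a few textbook reasons. Highly expressed genes, above all those of cytosolic ribosomal proteins, have left many processed pseudogenes, copies of the spliced messenger RNA inserted elsewhere in the genome, which keep enough of the sequence for the same probes to match. Tandem duplication gives neighbouring genes of nearly one sequence, as in the interferon-induced, MHC, receptor and zinc finger families, and small RNAs such as snoRNAs and miRNAs can lie inside the introns or exons of a host gene. Ribosomal proteins, which build the large (Rpl) and small (Rps) subunits, are made in step with cell growth and with the demand for protein synthesis.

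Some sequences show what such members have in common. The first set is the mature miRNAs of the 3 miRNA symbols (Mir682, Mir692-2 and Mir692-3) that share called members with a protein-coding gene; the bases in capitals are the seed, bases 2 to 8 from the 5′ end, which pairs with target messages. The sequences are RefSeq's for GRCm38.p6. Of the 68 symbols starting with Mir among the members, some of them host transcripts, 37 had a mature sequence in that table.
mmu-miR-682: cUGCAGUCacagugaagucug
mmu-miR-692: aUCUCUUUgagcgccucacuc
The seeds differ. The first is annotated at chr13:75645119-75645139 on the plus strand and stands beside Rpl37a, and the second has copies at chr4:125504805-125504825 and chr13:74407121-74407141, both on the plus strand, and stands beside Ftl1. Both of those partner genes lie on other chromosomes than the miRNA.

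The second set is the 100 bases before the start of 5 genes from 3 interferon-induced members, all of them with a match to the motif below. Oas1a and Oas1g, and Irgm2 and Igtp, are neighbouring copies that can be compared letter by letter. Ifi211 is shown without Ifi204. No match was found for Ifi204 or for the genes of the called Gbp and Sp100 members, which may lack a window or the motif. Capitals mark GAAANNGAA, letters shared with the element that interferon regulatory factors bind, searched on both strands; where matches overlap the run is longer. Coordinates are those of RefSeq on GRCm38.p6.
Oas1a, chr5:120907526-120907625, minus strand: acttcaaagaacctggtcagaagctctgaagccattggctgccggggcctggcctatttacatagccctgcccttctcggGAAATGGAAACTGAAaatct
Oas1g, chr5:120887614-120887713, minus strand: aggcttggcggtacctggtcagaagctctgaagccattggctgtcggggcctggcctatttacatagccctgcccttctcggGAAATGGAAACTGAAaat
Irgm2, chr11:58214877-58214976, plus strand: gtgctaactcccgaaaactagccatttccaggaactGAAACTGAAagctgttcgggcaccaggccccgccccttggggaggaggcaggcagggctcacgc
Igtp, chr11:58199456-58199555, plus strand: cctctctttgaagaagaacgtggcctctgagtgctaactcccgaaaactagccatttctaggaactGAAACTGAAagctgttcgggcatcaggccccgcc
Ifi211, chr1:173913047-173913146, minus strand: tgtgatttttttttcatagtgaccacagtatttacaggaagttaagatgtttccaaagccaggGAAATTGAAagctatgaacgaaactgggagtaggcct
Over the 250 bases before the start, Oas1a and Oas1g were 82.8% identical and Irgm2 and Igtp 68.9%. Among other pairs that share a called member, Apol7b and Apol7e were 95.7% identical there, Pirb and Pira2 78.1%, Il4i1 and Il4i1b 48%, and Gprasp1 and Gprasp2 46.7%. The motif was present in 2342 of the 32851 windows of that length in the table, or 7.13%, and in 2211 of 27025 genes, or 8.18%. It was present in 150 of the 1418 genes of members that had a window, or 10.6%, and in 23 of the 157 genes of called members, or 14.6%, among them 4 olfactory receptor genes as well as Rps19, Rps23 and Pnp. A match is a description of the letters and says nothing of binding.

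Values on the arrays are log2 expression values, and a change is the mean of the 4 knockout arrays minus the mean of the 4 control arrays on that scale. A member is called, and said to have risen or fallen, when limma's adjusted p over all 28874 probe sets was under 0.05. Hsd17b4, measured by a probe set of its own, checked the labels: it read 8.83, 9.09, 8.15 and 7.82 in control 1 to 4 and 4.76, 7.20, 5.21 and 5.20 in knockout 1 to 4, a change of -2.88 ± 0.46 (SE, n = 4 per group; adjusted p = 0.00249). Control 1 went against its sex label, with Xist at 6.80 where the other arrays read at least 10.55 and Eif2s3y at 8.14. Of the microglial markers, 5 of 6 measured were lower in knockout arrays, with a summed level of 14.16 to 14.31 against 14.57 to 14.75 in controls; Tmem119 fell from 12.49 to 11.83. T-cell markers (0 of 3 called, 7.78 to 8.55 in controls and 8.07 to 8.79 in knockouts) and neutrophil markers (0 of 6 called, 11.42 to 14.17 and 12.73 to 13.55) were not called, and 3 of 4 border macrophage markers were lower (8.65 to 9.52 in controls, 7.75 to 8.54 in knockouts). Of 3 astrocyte markers 1 rose, Gfap by 1.28 (summed level 6.49 to 7.01 in controls, 7.08 to 7.56 in knockouts), and of 3 oligodendrocyte markers 1 rose, Mbp by 0.59 (8.13 to 8.30, 8.37 to 8.58). Of 3 endothelial markers Flt1 rose by 1.99 and Pecam1 fell by 1.56 (summed level 7.92 to 8.59 in controls, 7.97 to 8.83 in knockouts). Their part in the results was not tested.

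Among the members, 314 rose and 33 fell in knockout arrays, 19.4% and 2.04% of 1621, so that 21.4% were called in either direction. Over all probe sets the shares were 6.61% higher, 3.82% lower and 10.4% in either direction, and for probe sets with 1 symbol they were 5.97%, 4.17% and 10.1%. Probe sets with no symbol were higher in 5.38% and lower in 2.95% of cases, 8.33% in all. The groups of arrays did not overlap in 338 of the 347 called members, and in 437 of all members (27%) against 14.9% of all probe sets. Called changes ran from 0.27 to 1.36 upward and from -0.34 to -1.30 downward, and 19 members rose and 4 fell by at least 2-fold. The median size of a called change was 0.63, against 0.59 for probe sets with 1 symbol. Counted by annotation group, 67 of 593 (11.3%) held a member that rose, 14 (2.36%) held one that fell and 0 held both.

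Most of the calls lay among bright members. Of the 367 members with a mean value of 10 or higher, 259 rose (70.6%) and 3 fell (0.817%), whereas of 743 probe sets with 1 symbol at that level 38.8% rose and 15.3% fell. Without a ribosomal protein symbol, 142 members of that level remained, of which 23.9% rose and 2.11% fell. Ribosomal proteins were not taken out of the probe sets with 1 symbol, so 23.9% and 38.8% are not like for like. Of the 740 members with a mean under 6, 4 rose and 3 fell. Between 6 and 8, 28 of 313 rose and 14 fell, and between 8 and 10, 23 of 201 rose and 13 fell.

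**Figure D1:**
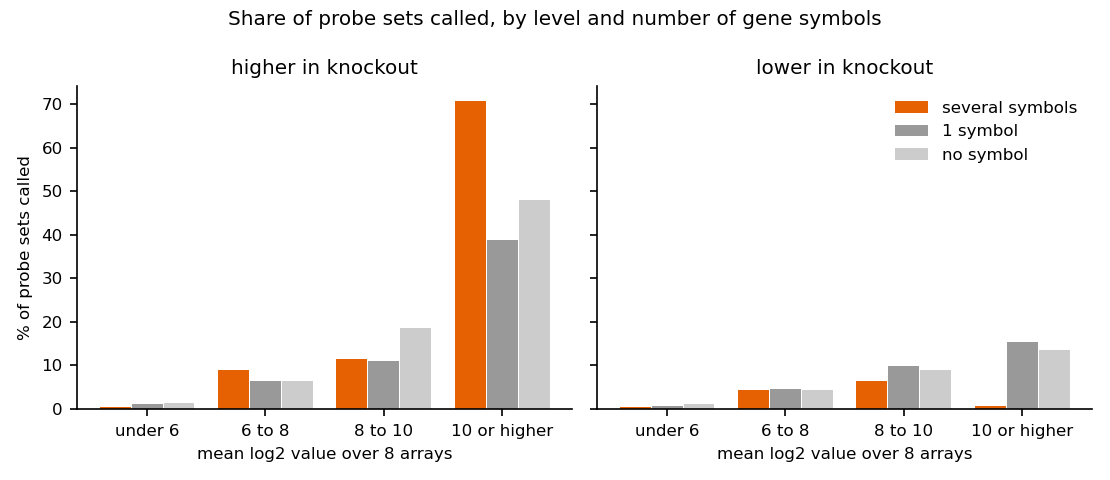
Share of probe sets called higher and lower (y axis, %) by mean log2 value over the 8 arrays (x axis), for probe sets with several symbols, 1 symbol and no symbol. As deposited, 70.6% of the members of 10 or higher were higher, against 38.8% of probe sets with 1 symbol. Among members of that level without a ribosomal protein symbol the share was 23.9%, whereas ribosomal proteins were not taken out of the probe sets with 1 symbol. These shares depend on the scaling of the arrays, as the counts for quantile and loess scaling in the text show.

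The uppermost values of the arrays differed between the groups as deposited, which bears on bright members. The 95th percentile of all probe sets overlapped, at 9.81 to 9.89 in controls and 9.83 to 9.99 in knockouts. So did the 90th, at 8.85 to 9.01 and 8.89 to 9.02. How far ribosomal protein probe sets make up the difference at the top was not tested. The 99th percentile of all probe sets was 11.40, 11.49, 11.62 and 11.47 in control 1 to 4 and 11.88, 11.86, 12.02 and 12.01 in knockout 1 to 4, while array medians stayed between 6.03 and 6.15. Forcing equal distributions on the arrays (quantile normalization) left 162 members higher and 72 lower, and cyclic loess left 214 higher and 85 lower, so that the share of calls that were higher went from 90.5% to 69.2% and 71.6%. Over all probe sets the same scalings called 1651 higher and 1445 lower, and 1858 higher and 1395 lower. Of the 347 called members, 165 (47.6%) were called in the same direction under quantile, loess and median centring alike, 146 higher and 19 lower, and they came from 55 annotation groups. Members under 10 had 55 higher and 30 lower calls as deposited, 51 and 27 after quantile normalization, 55 and 31 after loess and 52 and 19 after median centring, whereas members of 10 or higher had 259 and 3, 111 and 45, 159 and 54, and 259 and 2. The 743 probe sets with 1 symbol of 10 or higher had 288 higher and 114 lower calls as deposited. After quantile normalization they had 179 and 209, and after loess 195 and 230. Whether the brighter upper end of the knockout arrays comes from the cells or from the preparation of the arrays was not tested.

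**Figure D2:**
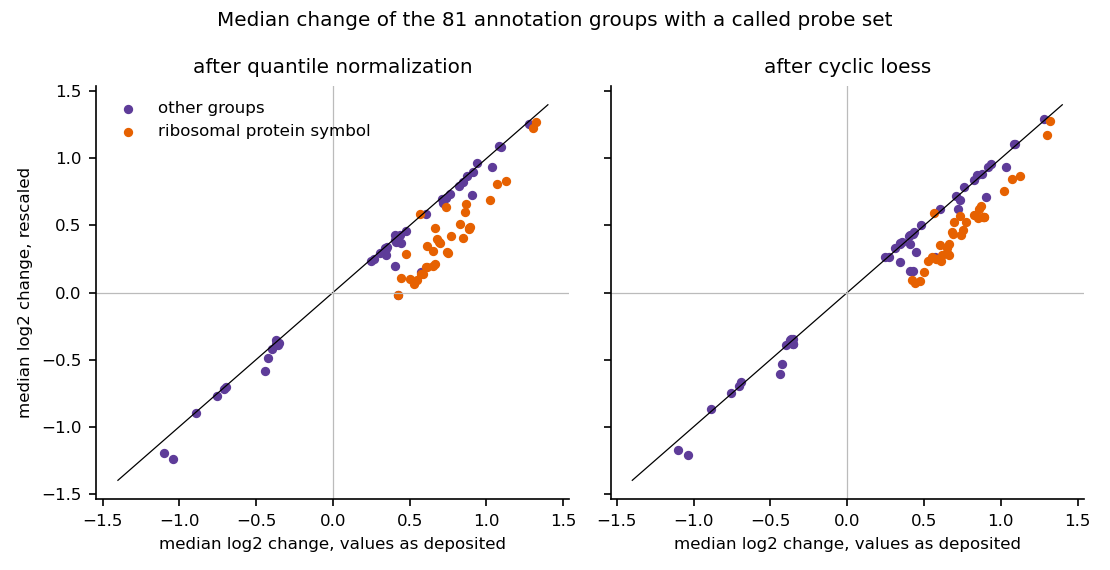
Median log2 change of the 81 annotation groups with a called member, as deposited (x axis) against the median after rescaling the arrays (y axis; one panel per scaling). Most groups of ribosomal proteins move toward 0 under quantile and loess scaling, by differing amounts, but Rpl13/Snord68 goes from 0.57 to 0.58 and 0.59. Rpl21 and, outside the ribosomal proteins, Gapdh reach -0.02 under quantile scaling. Csprs, Il4i1 and Oas1a keep their place and Pnp goes from -1.04 to -1.24 and -1.21.

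Ribosomal proteins made up most of the members that rose, though not so by annotation group. Of the groups, 35 held a ribosomal protein member that rose and 32 held another member that rose. Of 239 members with the symbol of a cytosolic ribosomal protein, in 36 annotation groups, 234 rose and 0 fell, with a median change of 0.66; 116 rose and 0 fell after quantile normalization (median 0.29) and 163 rose and 0 fell after loess (median 0.39). The median over these members was 10.95, 11.03, 11.27 and 11.02 on control 1 to 4 and 11.67, 11.62, 11.87 and 11.81 on knockout 1 to 4, so every knockout array lay above every control array and control 3 was the highest control. Probe sets that name 1 ribosomal protein alone behaved alike, with 205 of 221 higher (92.8%) and a median of 0.71 (126 and 0.35 after quantile normalization, 152 and 0.43 after loess). Members of the large subunit, 193 over 27 genes, rose in 189 cases with a median of 0.64, and members of the small subunit, 46 over 12 genes, in 45 cases with a median of 0.78; the difference between the subunits was not tested.

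Within the small subunit, Rps19 and Rps26 led. The Rps19-ps3/Rps19 member (probe set 10414874) read 9.11, 9.21, 9.82 and 9.11 in control 1 to 4 and 10.42, 10.39, 10.85 and 10.79 in knockout 1 to 4. All 4 knockout arrays lay above all controls, and control 3 stood above the other controls. The change was 1.30 ± 0.17 (SE, n = 4 per group; adjusted p = 0.00113), and the median of the 3 members of that group was 1.30 as deposited, 1.23 after quantile normalization and 1.17 after loess. Rps19 encodes a small-subunit protein needed for the maturation of the subunit. The Gm6654/Rps26 member (10373498) read 10.46, 10.58, 11.05 and 10.51 in controls and 11.63, 11.61, 11.97 and 11.99 in knockouts, again with no overlap, a change of 1.15 ± 0.14 (SE; adjusted p = 0.00101). Rps2, a core protein of the small subunit, shared probes with Gm10653 in 17 members, all of which rose, with a median of 0.75 that went to 0.29 after quantile normalization (14 called) and 0.47 after loess (17 called).

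Within the large subunit, Rpl22l1, a paralogue of Rpl22, and Rplp0, a protein of the stalk that recruits elongation factors, had the highest changes. The Gm15421/Rpl22l1 member (10528474) read 8.14, 8.29, 8.72 and 8.33 in controls and 9.06, 9.39, 9.98 and 10.41 in knockouts, a change of 1.34 ± 0.25 (SE; adjusted p = 0.00538). The knockout arrays were spread over more than 1 log2 unit, and the lowest of them still lay above the highest control. Gm5779/Rplp0 (10405935) read 10.35, 10.27, 10.79 and 10.14 in controls and 11.24, 11.51, 11.65 and 11.58 in knockouts, a change of 1.11 ± 0.14 (SE; adjusted p = 0.00106). Under both rescalings these groups stayed called, with medians of 1.27 and 1.28 for Rpl22l1 and 0.81 and 0.85 for Rplp0.

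The larger annotation groups had smaller changes and differed in how they bore rescaling. All 35 members that list Rpl29 rose by 0.47 to 0.94, median 0.69, and 24 were called after quantile normalization (median 0.38) and 32 after loess (0.44). All 32 members that list Camkv, Rpl21 and Cep170 rose by 0.32 to 0.56, median 0.42, but 0 were called under either rescaling, where the medians were -0.02 and 0.09. The brightest of them (10451884) read 11.98, 12.06, 12.26 and 11.96 in controls and 12.37, 12.40, 12.52 and 12.44 in knockouts, a change of 0.36 (adjusted p = 0.0248). Its knockout arrays lay above all controls by little, and control 3 came closest to them. All 10 Rpl30 members rose as deposited (median 0.44) and 0 under either rescaling (0.11 and 0.07). The 8 Rpl15 members rose as deposited (median 0.86) and under both rescalings (0.60 and 0.62). Rpl17/Hk1 lay between, with 17 of 17 members higher (median 0.68), 10 of them after quantile normalization and 15 after loess, and so did Rpl7a, with 17 of 17 (median 0.61), 4 and 16. The Ino80/Rpl35a group rose in 12 of 12 members with a median of 0.58, which became 0.14 and 0.25.

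**Figure D3:**
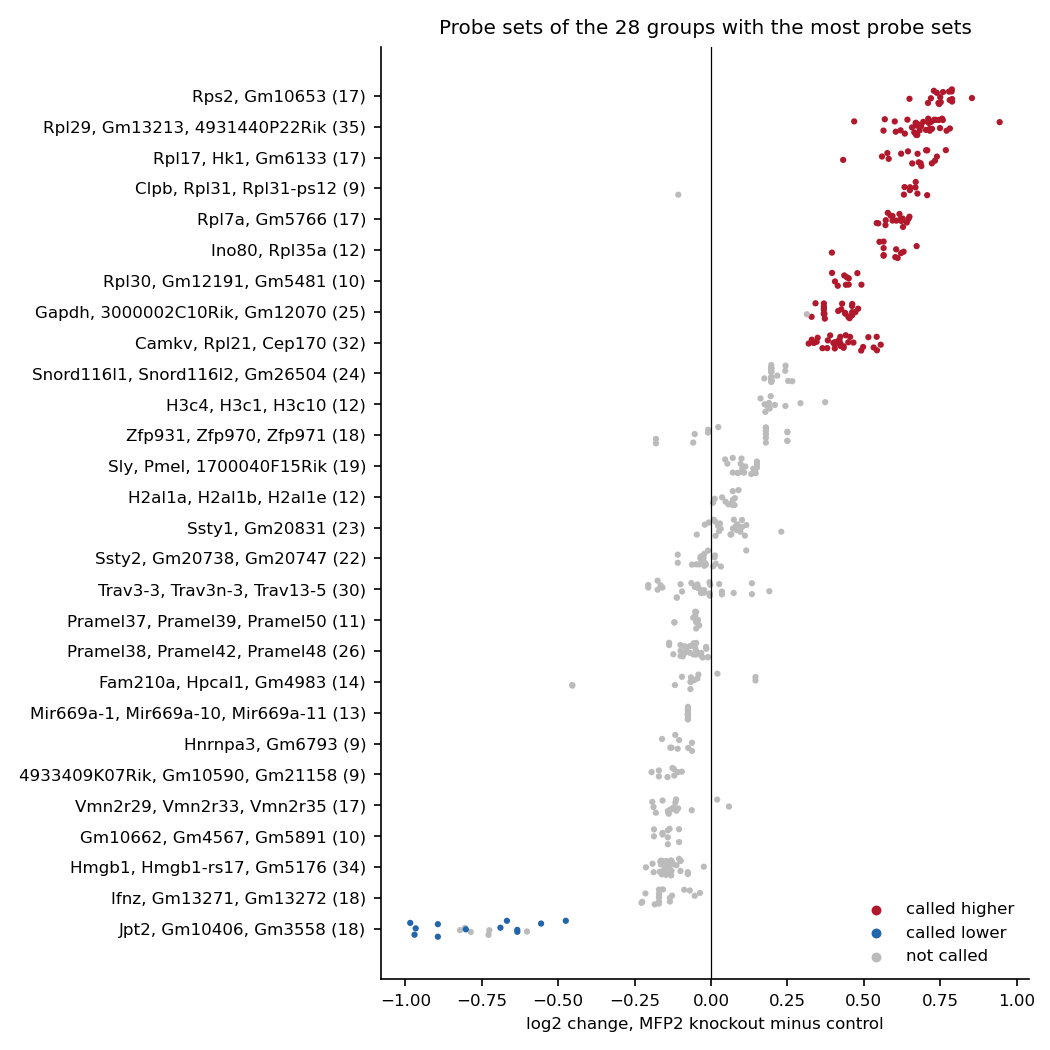
Log2 change, knockout minus control (x axis), of every member in the 28 annotation groups with the most members, one row per group, with called members marked. Every member that lists Rpl29, Rpl21, Rps2 or Rpl7a lies above 0, as deposited (Rpl21 members are not called after quantile or loess scaling), whereas members of the Hmgb1, Trav and Pramel groups were not called.

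Of the 5 ribosomal protein members that were not called, 4 list a small RNA beside the ribosomal protein and 1 lists Clpb. Rpl12/Snora65 changed by -0.01, one Rpl31/Clpb member (10555568) by -0.11, Snord34/Rpl13a by 0.15, Snord14a/Rps13 by -0.26 and Snord32a/Rpl13a by 0.70 (adjusted p = 0.247), whereas the other 7 Rpl12 members and the other 8 Rpl31 members rose. In the Snord68/Rpl13 member, by contrast, the change was 0.57 (adjusted p = 0.0184), and 9 of 9 probe sets with Rpl13 alone rose. Which of the overlapping transcripts the probes detect is not given in the annotation.

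Several ribosomal protein members also name an unrelated gene, and the probe sets of those genes alone could be set beside them. For 18 ribosomal protein genes with a probe set of their own there were 55 distinct pairs. Each pair joins an annotation group that holds a called member to an own probe set. Of these, 49 had the same direction and were called and 0 were called the other way. For the 13 named genes listed beside them there were 14 pairs, of which 1 was called in the same direction, 3 in the opposite direction and 10 were not called. Camkv, a kinase-like gene of neurons, read 0.05 alone and Cep170, a centrosomal protein gene, -0.68 (adjusted p = 0.00297) although members listing both with Rpl21 rose. Itgam, which encodes the CD11b used for the sort, read -0.09 alone, while the 3 members that list it with Rpl35 rose. The highest of these (10457731) read 10.55, 10.62, 11.08 and 10.68 in controls and 11.54, 11.53, 11.77 and 11.80 in knockouts, with no overlap, a change of 0.93 (adjusted p = 0.00123). Ino80, a chromatin remodeller, read -0.07, Clpb, a mitochondrial chaperone, -0.03, Brf2, a factor of RNA polymerase III, -0.28 and Tapbp, which loads peptides on MHC class I, 0.17. Hk1, hexokinase 1, has probe sets of its own at -0.39 (adjusted p = 0.0452) and 0.64 (adjusted p = 0.0104), and Ralgps2 read -0.51 (adjusted p = 0.0391).

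**Figure D4:**
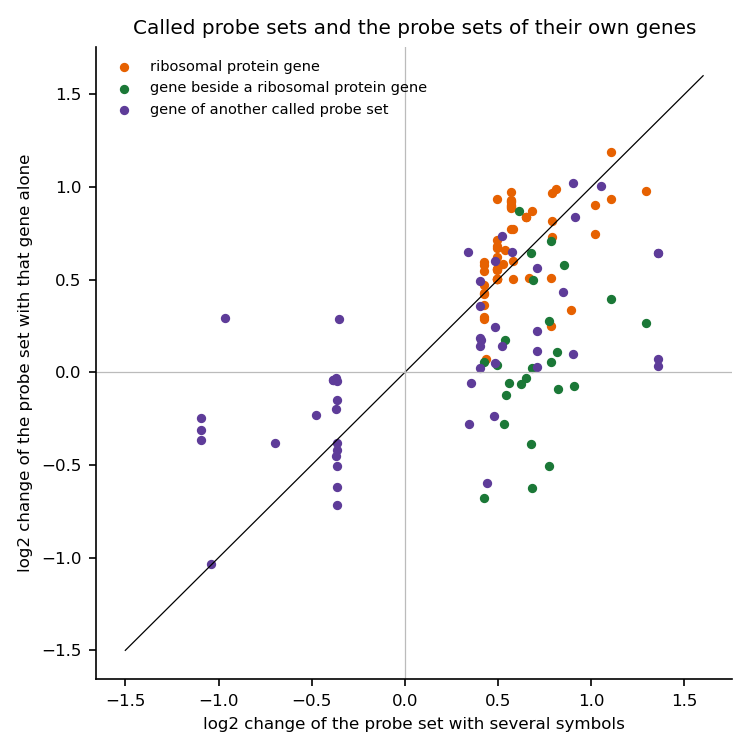
Log2 change of called members (x axis) against the log2 change of probe sets that name one of their genes alone (y axis). Each point is one pair of an annotation group, represented by one of its called members, and a gene's own probe set. Ribosomal protein genes lie above 0 on both axes, as deposited, while genes listed beside a ribosomal protein, predicted ones included, are spread around 0 on the y axis.

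Over all called members, 279 of 347 had at least 1 gene with a probe set of its own. In 127 of them the own probe sets that were called had the member's direction, in 53 they were mixed, in 2 they were called in the opposite direction only and in 97 none was called. Reduced to 130 distinct pairs in 53 annotation groups, 70 (53.8%) were called in the same direction, 4 in the opposite direction and 56 were not called. Own Rpl21 probe sets had changes of 0.29 to 0.59, and 7 of 9 rose as deposited and 0 after quantile normalization or loess. The own probe set of Rpl30 read 0.07 and that of Rpl29 0.25, neither called, although all members listing them rose as deposited.

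Classes of members by how their genes lie to each other differed in level as well as in calls. The median level was 10.73 for genes on different chromosomes and 6.49 for overlapping genes. It was 4.98 for genes within 10 genes of each other and 4.89 for those farther apart. Members under 6 were called in 0.946% of cases and those of 10 or higher in 71.4%. The part of level in the shares below was not tested. Where they lie on different chromosomes, 281 of 534 members rose and 8 fell (54.1% called); without the ribosomal protein members, 52 of 304 rose and 8 fell. Where they lie within 10 genes of each other on 1 chromosome, 14 of 473 rose and 7 fell (4.44%), and where they lie farther apart on it, 10 of 472 rose and 13 fell (4.87%). Of 122 members whose genes overlap in the RefSeq table, 9 rose and 5 fell (11.5%). That is near the share over all probe sets, 10.4% (6.61% higher and 3.82% lower). Members with 1 named gene beside predicted genes or pseudogenes rose in 185 and fell in 7 of 485 cases (39.6%), those with several named genes in 129 and 13 of 993, and those with predicted genes alone in 0 and 13 of 143. Their median levels were 8.52, 5.73 and 5.19.

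Apart from ribosomal proteins, 80 of 1382 members rose (5.79%) and 33 fell (2.39%), against 6.61% and 3.82% over all probe sets. The latter shares still include ribosomal proteins, whose probe sets with 1 symbol rose in 205 of 221 cases, so the comparison is not like for like. After quantile normalization 46 rose and 72 fell, after loess 51 and 85. Gapdh, the glycolytic dehydrogenase, made up 24 of the 80: 24 of 25 members that list it and its copies rose, median 0.43, and 0 were called under either rescaling (-0.02 and 0.16). The 4 members with Ftl1, the ferritin light chain that stores iron, rose; the one at 10563295 read 11.67, 11.78, 11.96 and 11.67 in controls and 12.35, 12.26, 12.39 and 12.44 in knockouts, a change of 0.59 ± 0.09 (SE; adjusted p = 0.0021). Its knockout arrays all lay above its controls, and Ftl1 alone read 0.65, but only 1 of the 4 members was called after quantile normalization and 2 after loess. Among the ribosomal protein members, Mir682/Rpl37a (10347273) also lists a miRNA. It read 11.91, 11.97, 12.37 and 12.07 in controls and 12.68, 12.72, 12.83 and 12.81 in knockouts, a change of 0.68 (adjusted p = 0.00215), beside 0.87 for Rpl37a alone. These probe sets measure long transcripts of the partner gene or its copies, or a precursor, and they say nothing of the mature miRNAs printed above. With ribosomal protein members included, 8 of the 67 members with a small RNA beside another gene rose and 2 fell (14.9%, against 10.4% of all probe sets). Those that rose list Ftl1, Rpl37a or Rpl13, and those that fell list Hspa8. Of 51 members whose symbols all start with Mir, Snor, Scarna or Rnu, 0 were called. Some of them hold a host transcript, such as Mir22hg. Many repeat identical values, and those of Mir467a and Mir669a were dim, with control means of 2.98 and 2.47.

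A few further members rose and were called under both rescalings too. The 4 members with Sec61g, a subunit of the channel for protein entry into the endoplasmic reticulum, rose with a median of 0.72 (0.67 and 0.62 after rescaling). Nme2/Dscaml1 (10535927), where Nme2 is a nucleoside diphosphate kinase, read 10.16, 10.10, 10.43 and 10.00 in controls and 10.86, 10.80, 11.46 and 11.19 in knockouts, a change of 0.90 (adjusted p = 0.00287); Nme2 alone read 1.02 and Dscaml1 alone 0.10. The 3 Ahcy members, of the enzyme that removes S-adenosylhomocysteine, rose by 0.68 to 0.78, and 4930567H12Rik/Cdkn1a, which lists the cell cycle inhibitor p21, rose by 0.73 (adjusted p = 0.0145). These members were picked after their values were seen.

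**Figure D5:**
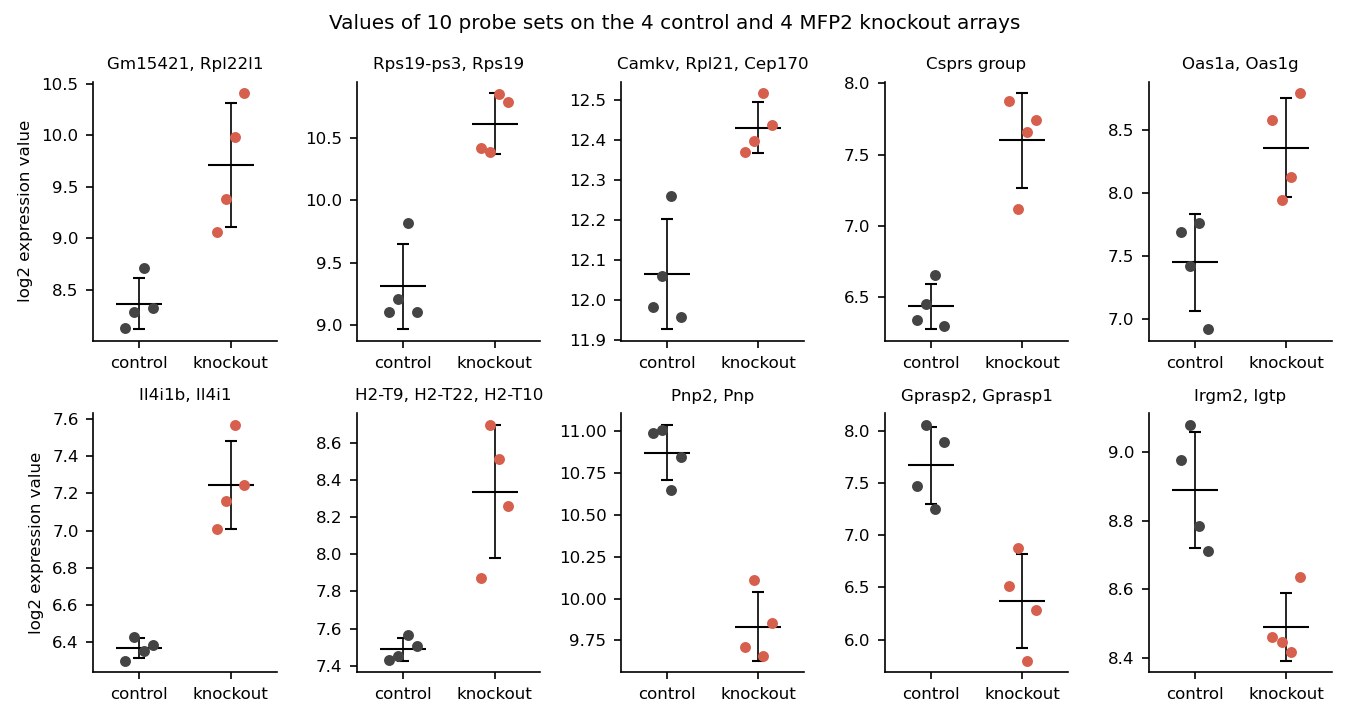
Log2 expression values (y axis) of 10 members on the 4 control and 4 MFP2 knockout arrays, one point per array with the group mean as a line and its SD as a bar. Knockout and control points of Rps19, Rpl22l1, Csprs, Il4i1 and Pnp do not overlap, under the values as deposited; the Rpl21 member has its highest control, control 3, at 12.26 and is not called after quantile or loess scaling.

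Among interferon-induced and antigen-presentation families, called members rose with 1 exception, Irgm2/Igtp. Over all probe sets 6.61% were higher and 3.82% lower as deposited. Of 15 members in the interferon list, 4 rose and 1 fell as deposited, with a median of 0.28 (3 and 1 after quantile normalization, 4 and 1 after loess, 4 and 0 after median centring), and of 8 MHC members 2 rose, median 0.61 (1 after quantile normalization, 1 after loess, 3 after centring). Csprs/Gm7592, a member of the Sp100 cluster (10582879), read 6.34, 6.45, 6.65 and 6.29 in controls and 7.87, 7.12, 7.66 and 7.74 in knockouts, a change of 1.17 ± 0.15 (SE; adjusted p = 0.00114). All 5 members of that group rose, with a median of 1.09 as deposited, 1.09 after quantile normalization and 1.11 after loess. The member at 10356262 lists Sp100, a nuclear body protein induced by interferon, and read 7.34, 7.04, 7.49 and 6.91 in controls and 8.44, 7.81, 8.31 and 8.41 in knockouts, beside 1.01 for Sp100 alone (adjusted p = 0.00177). Knockout 2 was the lowest knockout array in both, and still above every control.

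Oas1a/Oas1g (10533246), the copies of 2′-5′-oligoadenylate synthetase whose upstream sequences are printed above, read 7.69, 7.42, 7.76 and 6.92 in controls and 8.58, 7.95, 8.13 and 8.79 in knockouts. The gap between the groups was small, and the change of 0.91 ± 0.21 (SE; adjusted p = 0.0187) stood beside 0.84 for Oas1a alone (adjusted p = 0.0131); without control 2 the adjusted p of the member was 0.0579. The Gbp member, which lists Gbp4 and other guanylate-binding proteins, read 6.28, 6.34, 6.87 and 6.13 in controls and 7.15, 6.98, 7.09 and 7.25 in knockouts, a change of 0.71 (adjusted p = 0.00893). Apol7e/Apol7b rose by 0.47 (adjusted p = 0.026). Irgm2/Igtp, of immunity-related GTPases, fell, at 8.98, 9.08, 8.79 and 8.71 in controls and 8.46, 8.45, 8.42 and 8.64 in knockouts, a change of -0.40 ± 0.10 (SE; adjusted p = 0.0282) that was not called after median centring or in 5 of the 8 fits without 1 array. Ifi211/Ifi204, of DNA-sensing proteins, read 6.60, 6.72, 7.13 and 5.94 in controls and 7.49, 6.98, 8.15 and 8.87 in knockouts, which overlap; its change of 1.28 ± 0.36 (SE; adjusted p = 0.0449) was not called in 5 of those 8 fits or after quantile normalization. Oas1a/Oas1g and Irgm2/Igtp share the printed motif and moved in opposite directions.

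H2-T9/H2-T22/H2-T10, of non-classical MHC class I, read 7.43, 7.45, 7.57 and 7.50 in controls and 7.87, 8.70, 8.51 and 8.26 in knockouts, a change of 0.85 ± 0.15 (SE; adjusted p = 0.00431). The controls lay close together and the knockouts were spread, all above them. H2-K1/H2-D1 (10450075), the classical class I heavy chains, read 10.60, 10.14, 10.55 and 9.70 in controls and 10.99, 10.85, 10.99 and 11.17 in knockouts, a change of 0.75 (adjusted p = 0.0193) that was not called in 3 of the 8 fits without 1 array, nor after quantile normalization (0.61, adjusted p = 0.0664) or loess (0.56, adjusted p = 0.0626). Another member that lists H2-D1 (10444780) read 9.10, 7.76, 8.06 and 7.69 in controls and 10.51, 8.39, 8.60 and 10.38 in knockouts, where knockout 1 and knockout 4 stood far above knockout 2 and knockout 3, and the change of 1.32 was not called (adjusted p = 0.129).

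Other immune members rose as well. Il4i1b/Il4i1, an amino acid oxidase secreted by myeloid cells, read 6.30, 6.43, 6.36 and 6.39 in controls and 7.01, 7.16, 7.57 and 7.24 in knockouts, a change of 0.88 ± 0.11 (SE; adjusted p = 0.00113) with 0.87 and 0.89 after rescaling. The controls lay within a narrow band below every knockout array. The paired immunoglobulin-like receptors Pirb and Pira inhibit and activate myeloid cells. They shared members that rose by 0.69 (10559467, adjusted p = 0.0107) and 0.52 (10559454, adjusted p = 0.0477), and Pirb alone read 0.74 (adjusted p = 0.0273). Of the 8 members of that receptor list, 2 rose as deposited, where 6.61% of all probe sets did, and 1 after quantile normalization. Apoc2, an apolipoprotein that activates lipoprotein lipase, shared a member with Gm44805 that read 6.41, 6.46, 6.79 and 6.84 in controls and 7.02, 7.12, 8.11 and 7.56 in knockouts, a change of 0.82 (adjusted p = 0.0298). The gamma-chain T-cell receptor segments Trgv2, Trgv4 and Trgv6 (10403821) read 3.74, 3.82, 4.63 and 3.77 in controls and 5.01, 5.26, 4.39 and 5.53 in knockouts; control 3 lay above knockout 3, and the change was 1.06 (adjusted p = 0.019). A Trgv member with the same genes rose by 0.94 (10407940; adjusted p = 0.0151), and the other 56 receptor segment members were not called, nor were any of 3 T-cell markers. The highest change of all called members, 1.36, belonged to Erbb2/Sympk, with 7.92, 7.44, 8.79 and 7.60 in controls and 8.73, 9.59, 8.62 and 10.23 in knockouts, which overlap; Erbb2 alone read 0.07.

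Members that fell were fewer and less stable. Their number was 33 with all arrays, 10 without control 2, 13 without knockout 3, 16 without control 1, 20 without knockout 4 and 21 without control 4, and 7 of the 33 were called in all 8 fits without 1 array, against 246 of the 314 that rose. Pnp2/Pnp (10414527), of the purine nucleoside phosphorylases that break down nucleosides, read 10.99, 11.01, 10.65 and 10.84 in controls and 9.71, 10.11, 9.66 and 9.85 in knockouts. Every knockout array lay below every control, the change was -1.04 ± 0.12 (SE; adjusted p = 0.000885), Pnp alone read -1.04 (adjusted p = 0.00149), and rescaling gave -1.24 and -1.21. Gprasp2/Gprasp1 (10601834), of proteins that sort G protein-coupled receptors to lysosomes, read 7.47, 8.06, 7.25 and 7.89 in controls and 6.52, 6.87, 5.80 and 6.28 in knockouts, a change of -1.30 ± 0.23 (SE; adjusted p = 0.00376), and Armcx5/Gprasp1, whose genes start at the same window, fell by 0.48 (adjusted p = 0.0112).

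The largest group with lower members joins predicted genes and clones, and 12 of its 18 members fell, 6 after each of quantile normalization and loess. Only some of them also list Jpt2. Others that fell, such as 10417446 (-0.89), list predicted genes and clones alone. The member at 10412491, which does list Jpt2, read 9.47, 9.74, 9.46 and 9.22 in controls and 8.91, 8.97, 8.26 and 7.88 in knockouts. Its groups of arrays did not overlap (-0.97, adjusted p = 0.0162). Gm11821/Gxylt1, a xylosyltransferase of Notch, read 8.16, 8.29, 7.85 and 8.28 in controls and 7.60, 7.69, 7.23 and 7.29 in knockouts, a change of -0.69 (adjusted p = 0.00623), beside -0.38 for Gxylt1 alone (adjusted p = 0.0411). The 4 members with Ppp1r2, an inhibitor of protein phosphatase 1, fell by 0.34 to 0.39, and 1 of them was not called after median centring. Snord14d/Snord14c/Hspa8 (10584578) read 10.12, 9.42, 9.44 and 11.06 in controls and 8.82, 9.17, 9.03 and 8.60 in knockouts, where control 4 stood far above the others; its change of -1.10 (adjusted p = 0.0421) was not called in 5 of the 8 fits without 1 array or after quantile normalization, and probe sets with Hspa8 alone read -0.24 to -0.37. Rnase4/Ang (-0.44), Zbed6/Zc3h11a (-0.42), Irgm2/Igtp (-0.40) and Ubap1/Cep41 (-0.35) lost the call with median centring.

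Some bright members were called lower only after rescaling. There were 40 such members in 9 groups that were not called as deposited and were lower after both quantile normalization and loess, and 23 of them list Hmgb1, a chromatin protein, with a median of -0.15 as deposited, -0.44 after quantile normalization and -0.38 after loess. The 4 members of Actb/Actg1 had medians of -0.06, -0.52 and -0.35, and the 4 of alpha-tubulins -0.08, -0.53 and -0.37. Of 142 members of 10 or higher without a ribosomal protein symbol, 34 rose and 3 fell as deposited, 4 rose and 45 fell after quantile normalization and 4 rose and 54 fell after loess. Bright probe sets with 1 symbol, from which ribosomal proteins were not taken out, shifted downward too. At that level 38.8% of them rose and 15.3% fell as deposited. After quantile normalization 24.1% rose and 28.1% fell, and after loess 26.2% rose and 31% fell. The sign of the Rpl21 and Gapdh medians, and the calls of the actin, tubulin and Hmgb1 members, thus depended on the scaling, while no ribosomal protein member was called lower under any of the scalings.

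Families with many members in the table had few calls, but several of them were dim. As background for the counts below, 6.61% of all probe sets were higher and 3.82% lower. Median levels were 4.28 for olfactory, 3.66 for vomeronasal and taste receptor, 3.82 for germ-line and 3.92 for cytochrome P450 members. Of all members under 6, 0.946% were called, so a lack of calls there does not show unchanged expression. Of 98 olfactory receptor members 0 rose and 2 fell (1 after loess), and 0 of 65 vomeronasal receptor members were called, as were 0 of 83 members of germ-line multicopy families and 0 of 21 of cytochrome P450 and related enzymes. Histones, with 40 members, had 0 calls as deposited and a median of 0.09 (1 lower after quantile normalization), and 0 of 7 chemokine members and 0 of 3 proteasome members were called. Zinc finger genes had 5 higher and 2 lower of 28 as deposited (5 and 5 after quantile normalization, 5 and 3 after loess); the 5 of 6 members around Zfp987 that rose did so by 0.33 to 0.40. Zfp955b/Zfp955a (-0.37, adjusted p = 0.0219) and the Zfp850 member (-0.36, adjusted p = 0.0277) fell; of the genes in the Zfp850 member, Zfp780b alone read -0.72 and Zfp974 alone -0.62. All 48 members with Y-linked genes were uncalled, with no value above 5.06, also on control 1.

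The globins, which carry oxygen in red cells, were not called but varied between arrays of both groups. The Hbb member (10566258) read 7.55, 7.86, 9.91 and 8.22 in controls and 9.65, 9.72, 7.39 and 7.41 in knockouts, and the Hba-a2/Hba-a1 member (10375051) 6.88, 7.10, 8.62 and 7.37 in controls and 8.75, 8.65, 6.80 and 6.74 in knockouts. Control 3, knockout 1 and knockout 2 were high in both. Ly6c2/Ly6c1 (10429573), a surface marker of blood monocytes and endothelium, read 6.24, 7.24, 8.09 and 7.44 in controls and 7.26, 7.66, 6.46 and 7.78 in knockouts, with overlap throughout. Their part in other members was not tested.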

How the data were processed

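The authors deposited log2 expression values for each probe set, which per the submitters' processing notes come from RMA. The RMA program and its version were not given in the sources used here, and base 2 was inferred from the range of 2.04 to 13.99. RMA sets array distributions alike before probes are summarised, and dim changes are understated. Symbols are the platform annotation's; gene IDs were matched to a RefSeq table of GRCm38.p6 (2007 of 2032), from which sequences were taken. Knockout minus control was fitted on all 28874 probe sets with limma 3.58.1 in R 4.3.3 (lmFit, eBayes, two-sided, no covariate, no filter), adjusted by Benjamini-Hochberg, threshold 0.05. No list was tested. A family member needs 2 matching symbols. The members and lists were chosen with earlier results of these data known. Named were the 12 highest and 12 lowest non-overlapping called members with a named gene, up to 4 per family by adjusted p (2 where none passed), up to 10 with overlapping genes, up to 6 with a small RNA, those with own probe sets in opposite directions, and Hsd17b4; others, the searched motif and the printed sequences were chosen after values were seen. Alternatives were quantile, loess and median scaling, a filter at 6 on 4 arrays, thresholds, a replicate block and arrays left out. The fit was tested on simulated data. Python 3.11.15 was used.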

Additional observations from a re-analysis of the deposited data

Results flagged for a closer look

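In 19 of 256 groups of 4 arrays checked among the named members, 1 array stood apart from the other 3 by Dixon's criterion; chance gives about 1 in 20. Control 3 was the highest control in most of them. It read 9.82 against 9.21 for the next control in the Rps19-ps3/Rps19 members 10414874 and 10414767, whose values are identical, 11.63 against 11.39 in Gm6133/Rpl17/Hk1 (10356778), 11.66 against 11.41 and 12.25 against 12.02 in the Camkv/Rpl21/Cep170 members 10400544 and 10583448, and 4.63 against 3.82 in Trgv6/Trgv4/Trgv2 (10403821). In members that list Rpl29, control 3 read 10.99 against 10.70 (10366522), 10.97 against 10.70 (10402316), 10.96 against 10.65 (10498117), 11.22 against 10.88 (10505090), 11.18 against 10.91 (10583142) and 11.15 against 10.91 (10588499); these members share genes and are not independent. In Csprs (10347915) control 3 read 5.997 against 5.58.

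The other arrays that stood apart were knockout 3 at 11.70 against 11.42 in the Rpl29 member 10366522, knockout 2 at 6.36 below 7.06 in Csprs (10347925), control 4 at 4.87 below 5.08 in Apol7e/Apol7b (10425040) and knockout 3 at 8.07 below 8.27 in the Krtap10 member (10364328). In Vmn1r168/Vmn1r177 (10550805) control 2 was at 3.49 below 3.84 and knockout 2 at 4.12 above 3.93. In the ribosomal protein members control 3 lay nearer to the knockout arrays than the other controls did. Without control 3 and knockout 2, 301 members rose and 22 fell, and 311 of the 347 calls were kept.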

How the results depend on the processing

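The table holds RMA values of 4 arrays per group, so precision is limited by their number, and dim members, 682 of them below 6 on every array, can hide changes. The probes behind a member were not analysed here, so a value cannot be given to one of its genes, and the planned comparison of protein sequences was not run because no protein table was used. Members share probes and values, so counts of members exceed the number of separate measurements.

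Quantile normalization gave 162 members higher and 72 lower (314 and 33 as deposited), 116 higher among ribosomal protein members (234) and 46 among the others (80), 176 called with genes on different chromosomes, 27 groups with a lower member (14) and 72 members with own probe sets in the same direction (127). Cyclic loess gave 85 lower, 29 groups with a lower member and 51 higher without a ribosomal protein symbol, and median centring gave 21 lower and 9 called with overlapping genes (14). At an adjusted p under 0.01, 4 members were lower, 734 probe sets with 1 symbol were higher and 384 lower, 5 were called with overlapping genes and 29 in any family list, 42 groups held a higher and 4 a lower member, 28 were higher without a ribosomal protein symbol, and 63 had own probe sets in the same direction. With a change of at least 1.5-fold required, 185 were higher and 18 lower, 759 and 358 with 1 symbol, 172 on different chromosomes, 8 with overlapping genes and 31 in any family list, 44 groups held a higher and 6 a lower member, and 26 were higher without a ribosomal protein symbol. Asking for 1 matching symbol put 256 called members in a family list. Members of Camkv/Rpl21/Cep170 turned sign: after loess the changes were -0.010, -0.0014, -0.012, -0.035, -0.045, and after quantile normalization they were -0.016, -0.024, -0.0018, -0.12, -0.025, -0.042, -0.044, -0.0073, -0.063, -0.013, -0.036, -0.090, -0.038, -0.0034, -0.026, -0.034, -0.055, -0.031, -0.018, -0.050. The cause was not tested.

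With 1 array left out, 253 to 317 members were higher and 10 to 37 lower, 936 to 1397 and 546 to 1022 with 1 symbol, 237 to 296 called on different chromosomes, 7 to 13 with overlapping genes and 31 to 47 in any list. Groups with a higher member were 50 to 71 and with a lower one 6 to 16, higher members with a ribosomal protein symbol 211 to 234 and without one 38 (without knockout 4) to 88, and own probe sets in the same direction 94 to 140. No pairing by replicate number was visible: same-numbered arrays' deviations correlated at 0.18, -0.03, -0.02 and 0.01, and 2 of 8 arrays were closest to their own number. The labels do not say what the number stands for, and this check cannot show that same-numbered arrays were prepared apart. With a replicate block 304 members were higher and 33 lower.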
